A study of Mus musculus with 12 samples.

Results

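Cathepsins are the proteases of the lysosome, and 10 of their genes, Ctsa, Ctsb, Ctsc, Ctsd, Ctsf, Ctsh, Ctsk, Ctsl, Ctss and Ctsz, were followed here in cultured mouse cerebellar granule neurons (CGNs) that lack interferon-β or were given it. The genes were chosen by name, and all 10 were measured, out of 18193 genes that a probe set named alone. Expression was read on 12 Affymetrix microarrays as log2 values after robust multi-array averaging (RMA), so a difference of 1 is a doubling. The groups, of 3 arrays each, were Ifnb-/- CGNs given recombinant interferon-β (rIFN-β, 100 U/ml for 24 hours), untreated Ifnb-/- CGNs, Ifnb+/+ CGNs given the same rIFN-β, and untreated Ifnb+/+ CGNs. All came from 7-day-old pups of the B10.RIII strain and were lysed after 3 days in culture. Nothing in the sources used here says whether the 3 cultures of a group came from separate litters or animals, so p-values measure only the spread between these cultures. The study's methods count Ifnb+/- littermates among its wild types, whereas the labels of these cultures give Ifnb+/+. The knockout is not limited to neurons, so every cell type in an Ifnb-/- culture carries it.

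Cathepsins are made as inactive precursors, tagged with mannose 6-phosphate, carried to the acid lysosome and cut there into active enzymes. Cathepsin D is an aspartic protease, cathepsin A a serine carboxypeptidase, and the other members cysteine proteases, and in neurons they degrade the cargo that autophagy delivers. Microglia, the macrophages of the brain, also express many cathepsins. Interferon-β signals through its receptor, IFNAR, to genes whose promoters hold interferon-stimulated response elements (ISREs), whereas the transcription factor TFEB and its relatives bind CLEAR elements in lysosomal gene promoters.

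The arrays behaved as the treatment labels say, since 9 of 9 measured interferon-stimulated genes rose with rIFN-β in both genotypes (limma, adjusted p under 0.05). By an unadjusted limma p under 0.05, 9 of 9 were lower in treated Ifnb-/- than in treated Ifnb+/+ CGNs, against 3.06% of all genes. The median was -1.35, against 0.03 over all genes, and 0 passed after adjustment. Their means were 8.74, 9.43 and 8.72, against 9.38, 10.55 and 11.15, and 3.58, 3.47 and 3.49, against 4.33, 4.28 and 4.41 untreated. For the difference of the rIFN-β effects 0 of 9 had an unadjusted limma p under 0.05. Ifnb1 itself lay between 2.48 and 3.06 on all 12 arrays, near the low end of the scale, so it could not check the genotype. Arrays of a group correlated at 0.980 to 0.998 on average with the other arrays of that group. The median SD over genes was 0.154 in Ifnb-/- + rIFN-β, 0.0872 in Ifnb-/-, 0.171 in Ifnb+/+ + rIFN-β and 0.201 in Ifnb+/+ CGNs. The 16 measured granule neuron markers averaged 8.24 to 8.73 across the arrays. Gabra6, a GABA receptor subunit of these neurons, averaged 6.63 in Ifnb-/- + rIFN-β, 6.18 in Ifnb-/-, 5.19 in Ifnb+/+ + rIFN-β and 5.46 in Ifnb+/+ CGNs, and it was the 1 marker of this list to pass a test, between the treated genotypes (1.44, limma adjusted p = 0.0221). Genes of other cell types were also detected.

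Promoter windows, from 250 bases before to 50 bases after a start site, were held for 8 of the 10 genes in RefSeq (build GRCm38.p6). None was held for Ctsb or Ctsh. Both strands were searched for the CLEAR core CACGTG, the ISRE core (GAAA, any 2 bases, GAAA) and the core of the gamma-activated site (TTC, any 3 bases, GAA). These motifs do not overlap one another in the windows shown. Stretches of 120 bases are printed to show where these letters stand, with the matches in capitals. They cover the members with a window that passed a test (Ctsd, Ctsa, Ctsl and Ctsz), and Ctsf and Ctss, which passed none. Ctsc and Ctsk also have a window and passed none, but are not printed.
Ctsd: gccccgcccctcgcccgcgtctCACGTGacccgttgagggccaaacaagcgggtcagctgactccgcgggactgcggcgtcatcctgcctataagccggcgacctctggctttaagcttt
Ctsa: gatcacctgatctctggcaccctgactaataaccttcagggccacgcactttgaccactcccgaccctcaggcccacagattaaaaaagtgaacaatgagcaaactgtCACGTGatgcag
Ctsl: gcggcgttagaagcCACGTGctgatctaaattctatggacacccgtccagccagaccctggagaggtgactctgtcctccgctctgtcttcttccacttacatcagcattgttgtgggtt
Ctsf: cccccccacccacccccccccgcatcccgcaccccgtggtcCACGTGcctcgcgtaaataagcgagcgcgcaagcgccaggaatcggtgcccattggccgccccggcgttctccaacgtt
Ctsz: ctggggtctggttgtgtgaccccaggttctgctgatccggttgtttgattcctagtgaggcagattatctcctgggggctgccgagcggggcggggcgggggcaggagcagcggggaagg
Ctss: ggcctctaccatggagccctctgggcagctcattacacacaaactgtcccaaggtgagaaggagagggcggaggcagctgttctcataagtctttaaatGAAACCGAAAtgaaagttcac
The Ctsd stretch is chr7:142387828-142387947 on the minus strand, and the Ctsa stretch, from the second of its 2 annotated starts, is chr2:164833653-164833772 on the plus strand. The Ctsl stretch is chr13:64370651-64370770 on the minus strand, the Ctsf stretch chr19:4855045-4855164 on the plus strand, the Ctsz stretch chr2:174439040-174439159 on the minus strand and the Ctss stretch chr3:95526666-95526785 on the plus strand. The Ctsl stretch begins 250 bases before the start, and the others end at the base before it. The CLEAR core stood at -98 and -245 in Ctsd and at -12 and 6 from the second start of Ctsa. It also stood at -236 in Ctsl and at -79 in Ctsf, and was found in 7.15% of all 32851 windows. The window of the first Ctsa start, at the edge of the annotated gene, held none of the 3 cores. The second Ctsa start and the whole Ctsl stretch lie inside the annotated genes (chr2:164832872-164841032 and chr13:64361890-64370772). The ISRE core stood at -21 in Ctss and in none of the other windows of these genes, against 3.44% of all windows, and the gamma-activated site core at -236 in Ctsc, against 8.3%. None of the 3 cores was found in the Ctsz or the Ctsk window. A match is a description of letters only.

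The clearest pattern was a fall of cathepsin genes when Ifnb+/+ CGNs were given rIFN-β. Ctsd, Ctsa, Ctsz, Ctsb and Ctsl fell (limma, Benjamini-Hochberg adjusted p under 0.05 over all genes), which is 5 of 10 members, against 1.36% of all genes tested that fell. The log2 fold change was below 0 for 9 of 10 members, against 56% of all genes, with a median of -0.64 over the members and -0.03 over all genes. In 6 of 10 members no treated array reached an untreated one, against 9.28% of all genes, and these were the 5 that fell and Ctsf. With only the 2 groups compared in the fit, Ctsa and Ctsd alone passed, and with the methods' t-test none did after adjustment. The same rIFN-β given to Ifnb-/- CGNs lowered 1 of 10 members past the threshold, Ctsz, against 0.742% of all genes. There 9 of 10 log2 fold changes were below 0, against 36.4% of all genes, with a median of -0.36 over the members and 0.07 over all genes. Arrays did not overlap, with the treated ones lower, for 6 of 10 members, against 12.6% of all genes.

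Untreated Ifnb-/- CGNs differed from untreated Ifnb+/+ CGNs in the same direction. Ctsd was lower past the threshold, 1 of 10 members, against 0.0824% of all genes. All 10 log2 fold changes were below 0, against 65.5% of all genes, with a median of -0.30 over the members and -0.09 over all genes. Ctsa, Ctsb, Ctsd, Ctsh and Ctsz were lower in Ifnb-/- CGNs without overlap of the arrays, 5 of 10 members against 18.1% of all genes. Between the treated genotypes none of the 10 members passed the limma test, against 0.0605% of all genes in either direction, although 3 had an unadjusted p under 0.05, against 4.94% of all genes. The comparisons share arrays, so a low or high group enters more than one of them. Each array is a bulk culture, in which fewer cells of a type and less RNA per cell cannot be told apart.

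**Figure D1:**
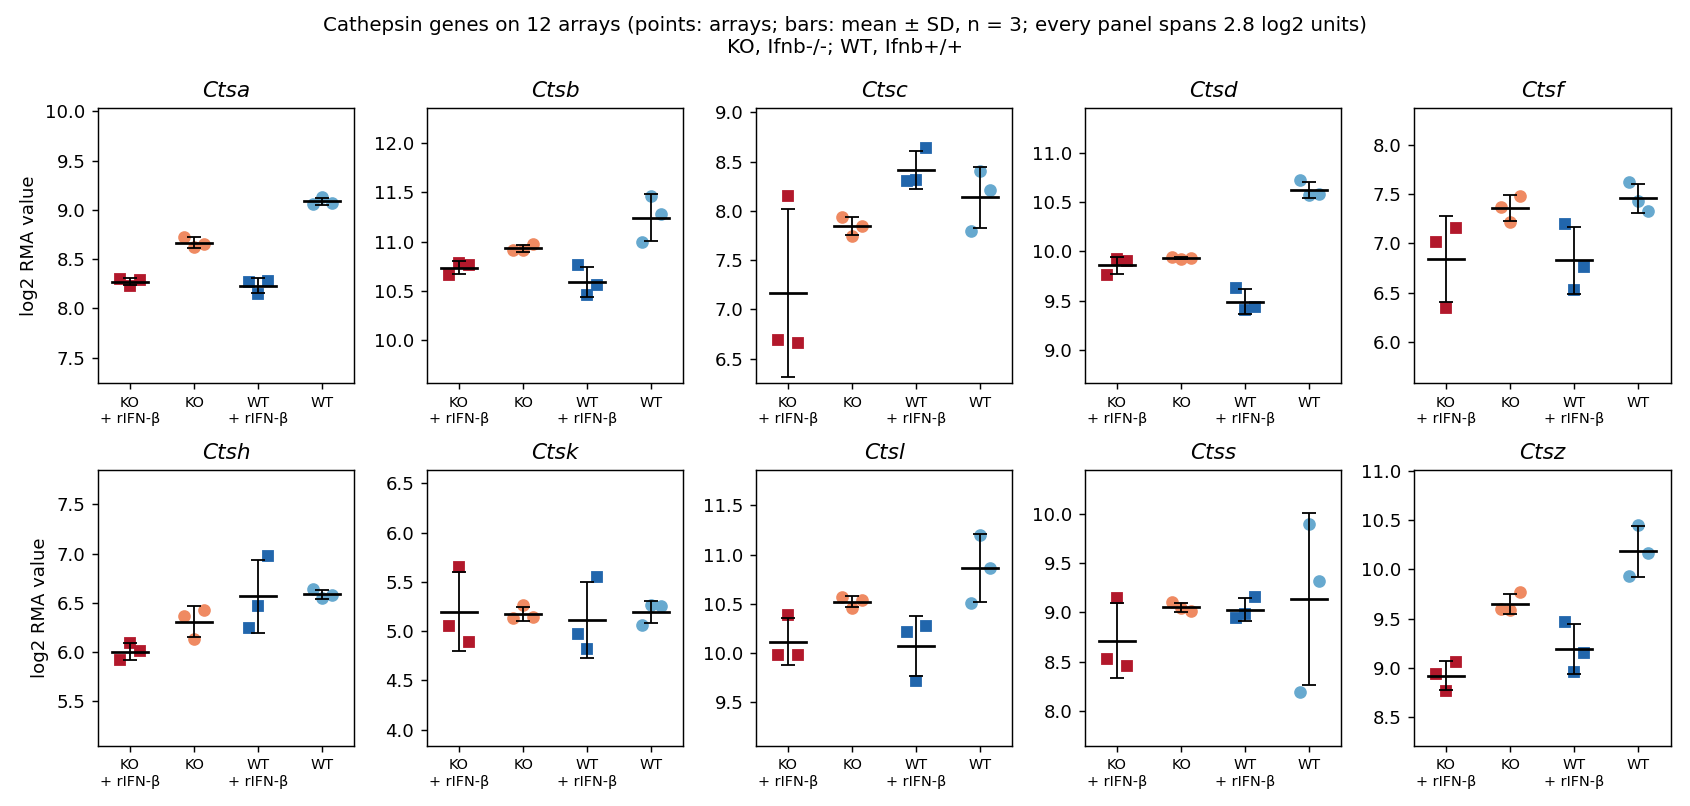
Log2 RMA values of the 10 cathepsin genes (y axis, each panel spanning 2.8 log2 units) in the 4 groups (x axis; KO is Ifnb-/- and WT is Ifnb+/+), with points for arrays and bars for the mean ± SD of 3 arrays. Untreated Ifnb+/+ CGNs had the highest mean for all members except Ctsc and Ctsk, though for Ctsh it was 6.59 against 6.57 in Ifnb+/+ + rIFN-β CGNs. Ctsc on Ifnb-/- + rIFN-β arrays split into 1 array at 8.15 and 2 at 6.69 and 6.66.

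Ctsd, the lysosomal aspartic protease, gave the widest separation of the groups. Its log2 values were 9.76, 9.92 and 9.90 on Ifnb-/- + rIFN-β arrays and 9.94, 9.92 and 9.93 on Ifnb-/- arrays. On Ifnb+/+ + rIFN-β arrays they were 9.63, 9.40 and 9.44, against 10.72, 10.57 and 10.58 on Ifnb+/+ arrays. All untreated Ifnb+/+ arrays lay above every other array, all treated Ifnb+/+ arrays lay below every other array, and the treated and untreated Ifnb-/- arrays overlapped. With rIFN-β, Ctsd fell by 1.13 on the log2 scale in Ifnb+/+ CGNs (SE 0.103, 2.19-fold, limma adjusted p = 7.01e-05), and this held without any single array (adjusted p 5.18e-05 to 0.000759). In Ifnb-/- CGNs the log2 fold change was -0.06 (95% interval -0.29 to 0.16, limma adjusted p = 0.791). The difference between those effects, Ifnb-/- minus Ifnb+/+, was 1.07 (SE 0.145, limma adjusted p = 0.0414), and Ctsd was 1 of 4 genes to pass that test, or 0.022% of all genes.

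Before treatment Ctsd was lower in Ifnb-/- than in Ifnb+/+ CGNs by a log2 fold change of -0.70 (SE 0.103, 1.62-fold, limma adjusted p = 0.0284). Its p-value passed the threshold in only 5 of the 12 refits that each left out 1 array, and was lost without any one of the Ifnb-/- arrays, without Ifnb-/- + rIFN-β replicate 1 or 3, or when Ifnb+/+ replicate 1 or 3 was left out (adjusted p 0.0149 to 0.186 over the 12). The log2 fold change itself stayed between -0.72 and -0.65. The call was also lost with each array centred on its median (adjusted p = 0.0723), with only the groups compared (0.0656) and with the methods' t-test (0.0986). The difference of the rIFN-β effects passed in 2 of those 12 refits, when Ifnb+/+ replicate 2 was dropped and when Ifnb+/+ + rIFN-β replicate 1 was dropped, with values of 1.02 to 1.14 (adjusted p 0.0141 to 0.217). It was lost too with probe sets tested singly (0.0848), a mean of at least 5 (0.0533), renewed quantile normalization (0.0528) and centring (0.126). Between treated cultures Ctsd was higher in Ifnb-/- than in Ifnb+/+ CGNs by 0.37 without overlap of the arrays (SE 0.103), which did not pass the test (limma adjusted p = 0.421).

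Ctsa encodes cathepsin A, a carboxypeptidase that also holds the sialidase Neu1 and the β-galactosidase Glb1 in a stable complex. Its log2 values were 8.30, 8.23 and 8.29 on Ifnb-/- + rIFN-β arrays and 8.73, 8.62 and 8.65 on Ifnb-/- arrays. They were 8.27, 8.15 and 8.28 on Ifnb+/+ + rIFN-β arrays, against 9.06, 9.13 and 9.07 on Ifnb+/+ arrays. The treated arrays of both genotypes overlapped each other, the untreated Ifnb-/- arrays lay above them, and the untreated Ifnb+/+ arrays were highest. Ctsa fell by 0.86 with rIFN-β in Ifnb+/+ CGNs (SE 0.092, 1.81-fold, limma adjusted p = 0.000274), and in all 12 refits without 1 array. In Ifnb-/- CGNs the log2 fold change with rIFN-β was -0.39, which did not pass (SE 0.092, limma adjusted p = 0.0599), though it did without Ifnb+/+ replicate 1 or 2 (lowest adjusted p 0.0367). Untreated Ifnb-/- CGNs were at -0.42 relative to Ifnb+/+ CGNs (SE 0.092, limma adjusted p = 0.117, or 0.0238 without Ifnb+/+ replicate 2). The difference of the rIFN-β effects on Ctsa was 0.47 (SE 0.130, limma adjusted p = 0.323).

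Ctsz encodes cathepsin Z, a carboxypeptidase of the cysteine family, and was the 1 member to fall past the threshold with rIFN-β in both genotypes. Ctsa, Ctsb, Ctsf and Ctsl were also lower without overlap of the arrays in both. Ctsz log2 values were 8.94, 8.77 and 9.06 on Ifnb-/- + rIFN-β arrays, against 9.60, 9.59 and 9.77 on Ifnb-/- arrays. They were 9.47, 8.96 and 9.15 on Ifnb+/+ + rIFN-β arrays, against 9.93, 10.45 and 10.17 on Ifnb+/+ arrays. Neither genotype's treated arrays reached its untreated ones, and the treated arrays of the genotypes overlapped. Ctsz fell by 0.99 in Ifnb+/+ CGNs (SE 0.160, 1.99-fold, limma adjusted p = 0.00484) and by 0.73 in Ifnb-/- CGNs (SE 0.160, 1.66-fold, limma adjusted p = 0.0438). The first held without any single array, with adjusted p up to 0.028, whereas the second passed in 5 of 12 such refits (adjusted p 0.0186 to 0.194) and was lost when any one array of either Ifnb-/- group, or Ifnb+/+ replicate 3, was left out. Over all 24 alternatives, other settings included, the call of Ctsz in Ifnb-/- CGNs was lost in 12. The difference between these effects was 0.26, with a 95% interval of -0.23 to 0.76 (limma adjusted p = 0.524). Untreated Ifnb-/- CGNs were at -0.53 relative to Ifnb+/+ CGNs, without overlap (SE 0.160, limma adjusted p = 0.18).

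Ctsb and Ctsl encode cathepsins B and L, endopeptidases that break down much of the protein reaching the lysosome. Ctsb log2 values were 10.66, 10.78 and 10.76 on Ifnb-/- + rIFN-β arrays and 10.91, 10.91 and 10.97 on Ifnb-/- arrays. They were 10.76, 10.46 and 10.56 on Ifnb+/+ + rIFN-β arrays, against 10.99, 11.46 and 11.28 on Ifnb+/+ arrays. In both genotypes every treated array lay below every untreated one, and in Ifnb+/+ CGNs the fall was 0.65 (SE 0.129, 1.57-fold, limma adjusted p = 0.0174). It was lost when Ifnb+/+ replicate 3 was dropped, and likewise for Ifnb+/+ + rIFN-β replicates 2 and 3 (highest adjusted p 0.0875). The log2 fold change of Ctsb was -0.20 with rIFN-β in Ifnb-/- CGNs (limma adjusted p = 0.487) and -0.31 in untreated Ifnb-/- against Ifnb+/+ CGNs (limma adjusted p = 0.213), the second being -0.20 without Ifnb+/+ replicate 2. The difference of the rIFN-β effects was 0.45 (SE 0.182, limma adjusted p = 0.323).

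Ctsl log2 values were 9.98, 10.39 and 9.98 on Ifnb-/- + rIFN-β arrays and 10.57, 10.46 and 10.54 on Ifnb-/- arrays. They were 10.22, 9.72 and 10.28 on Ifnb+/+ + rIFN-β arrays, against 10.51, 11.20 and 10.87 on Ifnb+/+ arrays. Treated arrays were below untreated ones without overlap in each genotype, and untreated Ifnb+/+ arrays spread over the widest range. In Ifnb+/+ CGNs Ctsl fell by 0.79 (SE 0.194, 1.72-fold), just inside the threshold (limma adjusted p = 0.04995). This passed in 4 of 12 refits without 1 array (adjusted p 0.0189 to 0.182) and was lost when any of these arrays was dropped: the 3 Ifnb-/- arrays, Ifnb-/- + rIFN-β replicates 1 and 3, Ifnb+/+ replicate 3, and the Ifnb+/+ + rIFN-β replicates 2 and 3. It was also lost with probe sets tested singly and with renewed quantile normalization. In Ifnb-/- CGNs the log2 fold change with rIFN-β was -0.41 (limma adjusted p = 0.359).

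**Figure D2:**
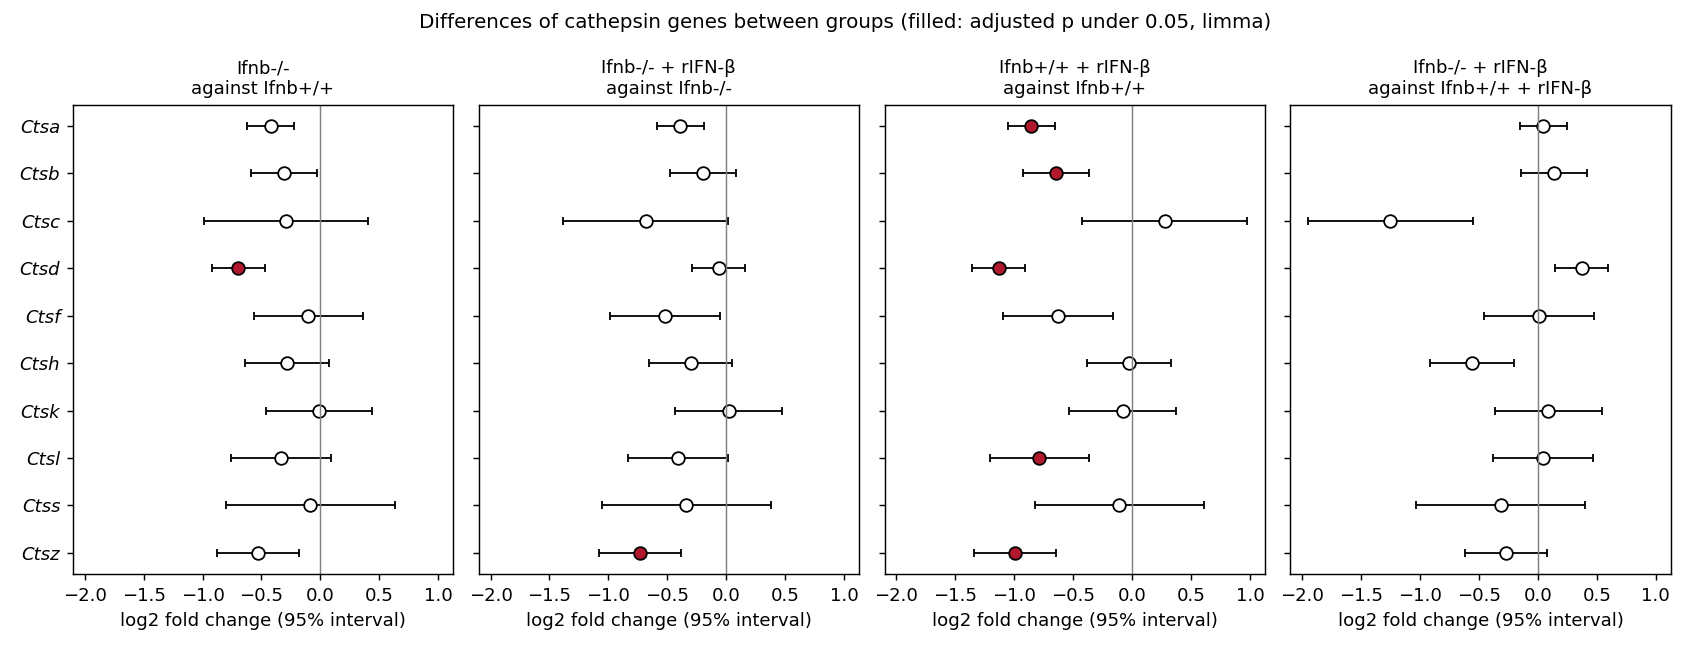
Log2 fold changes (x axis) with 95% intervals of the 10 cathepsin genes (y axis) in 4 comparisons, from limma across all genes, with filled points for an adjusted p under 0.05. Filled points are Ctsd in untreated Ifnb-/- against Ifnb+/+ CGNs, Ctsz with rIFN-β in Ifnb-/- CGNs, and Ctsa, Ctsb, Ctsd, Ctsl and Ctsz with rIFN-β in Ifnb+/+ CGNs.

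The other members passed no test. Ctsf, a cysteine protease, was at 7.02, 6.34 and 7.16 on Ifnb-/- + rIFN-β arrays and 7.37, 7.22 and 7.48 on Ifnb-/- arrays. On Ifnb+/+ + rIFN-β arrays it was at 7.20, 6.53 and 6.76, against 7.62, 7.43 and 7.33 on Ifnb+/+ arrays. Replicate 2 was the lowest treated array in both genotypes, and no treated array reached an untreated one of its genotype. The log2 fold change with rIFN-β was -0.52 in Ifnb-/- CGNs (SE 0.213, limma adjusted p = 0.288) and -0.63 in Ifnb+/+ CGNs (SE 0.213, limma adjusted p = 0.139). Without Ifnb-/- + rIFN-β replicate 2 the first was -0.27. Ctsh, an aminopeptidase, was at 5.92, 6.09 and 6.01 on Ifnb-/- + rIFN-β arrays, against 6.25, 6.47 and 6.98 on Ifnb+/+ + rIFN-β arrays. The treated Ifnb-/- arrays were all lower, by a log2 fold change of -0.56 (SE 0.163, limma adjusted p = 0.459), which was -0.36 without Ifnb+/+ + rIFN-β replicate 3. Untreated Ctsh values were 6.37, 6.13 and 6.43 on Ifnb-/- arrays and 6.64, 6.55 and 6.58 on Ifnb+/+ arrays.

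Ctsc encodes dipeptidyl peptidase I, which activates the serine proteases of immune cell granules. Its log2 values were 6.69, 8.15 and 6.66 on Ifnb-/- + rIFN-β arrays, against 8.30, 8.31 and 8.64 on Ifnb+/+ + rIFN-β arrays. It was at 7.94, 7.75 and 7.85 on Ifnb-/- arrays and 7.80, 8.41 and 8.21 on Ifnb+/+ arrays. Replicate 2 of the Ifnb-/- + rIFN-β group stood with the other groups, and the other 2 arrays of that group were the lowest of all 12. The log2 fold change between treated genotypes was -1.25 (SE 0.321, limma adjusted p = 0.339), and -1.75 without that replicate 2, which passed (limma adjusted p = 0.0116). Astrocyte markers averaged 8.97 on that array, against 7.90 and 7.82 on the other Ifnb-/- + rIFN-β arrays. They averaged 7.85, 8.36 and 8.67 on the Ifnb+/+ + rIFN-β arrays, where Ctsc was high on all 3, and their part in the Ctsc value was not tested. Across all 12 arrays Ctsc ran against the granule neuron marker mean (r = -0.87), as a description of arrays that share culture composition.

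Ctss, an endopeptidase best known for cutting the invariant chain in antigen-presenting cells, was the member whose window held the ISRE core. Its log2 values were 8.53, 9.15 and 8.46 on Ifnb-/- + rIFN-β arrays and 9.10, 9.04 and 9.01 on Ifnb-/- arrays. They were 8.94, 8.98 and 9.16 on Ifnb+/+ + rIFN-β arrays and 8.19, 9.90 and 9.32 on Ifnb+/+ arrays. The untreated Ifnb+/+ arrays alone spanned the range of all the others, and the log2 fold change with rIFN-β was -0.34 in Ifnb-/- CGNs (95% interval -1.05 to 0.38) and -0.11 in Ifnb+/+ CGNs (95% interval -0.82 to 0.61). Ctsk, the collagen-degrading protease of osteoclasts, lay between 4.82 and 5.65 on all arrays, with log2 fold changes of -0.01 to 0.09 in the 3 comparisons other than rIFN-β in Ifnb+/+ CGNs, where it was -0.08.

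Several genes had more than 1 probe set, 22 in all, and the one with the highest mean over the 12 arrays was used. Only Ctsd, Ctsk and Ctss rested on a single probe set. The other Ctsb probe sets with a mean of 10.5, 7.63 and 7.03 followed the one used (r = 0.93, 0.97 and 0.93 over 12 arrays), and gave log2 fold changes of -0.95, -1.27 and -1.34 with rIFN-β in Ifnb+/+ CGNs, against -0.65 for the one used. The other Ctsz probe sets gave -0.94 and -0.93 (r = 0.99 and 0.96), and the second Ctsh probe set had r = 0.90. For the difference of the rIFN-β effects the same 3 Ctsb probe sets gave 0.53, 0.90 and 1.04, against 0.45 for the one used, and none passed when probe sets were tested singly (limma adjusted p 0.373 to 0.375). With rIFN-β in Ifnb-/- CGNs they gave -0.42, -0.37 and -0.30, against -0.20, and the other Ctsz probe sets gave -0.57 and -0.47, against -0.73, again with none past the threshold (limma adjusted p 0.125 to 0.415). The remaining probe sets of Ctsa, Ctsb, Ctsc, Ctsf and Ctsl had means of 2.13 to 4.91 and followed the brighter ones weakly (r = -0.29 to 0.53).

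**Figure D3:**
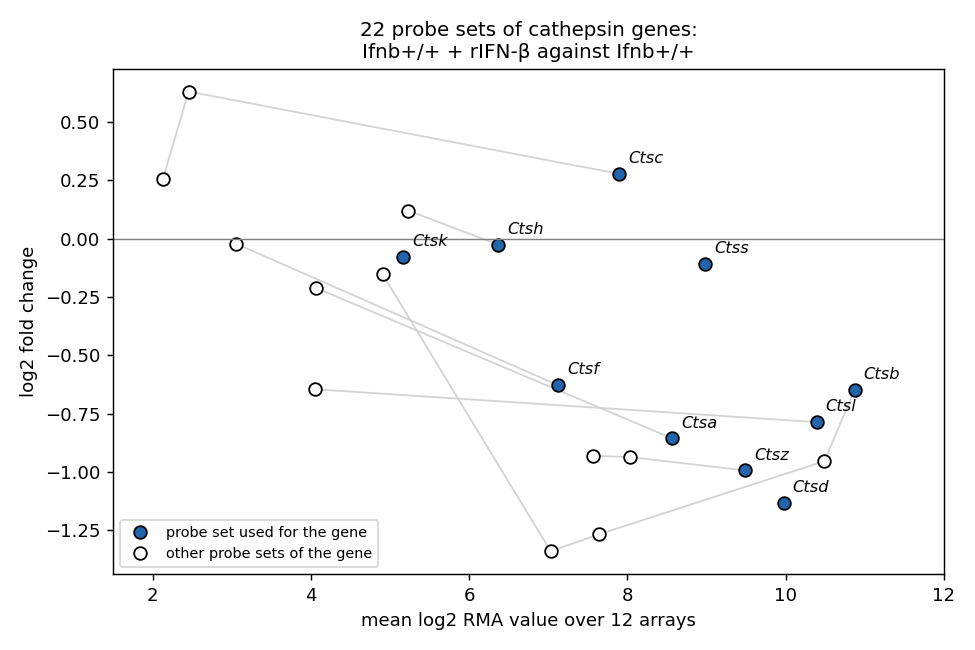
Log2 fold change of Ifnb+/+ + rIFN-β against Ifnb+/+ CGNs (y axis) for each of the 22 probe sets against its mean log2 RMA value over 12 arrays (x axis), with filled points for the probe set used and lines joining the probe sets of a gene. The probe sets used for Ctsb and Ctsz lay at -0.65 and -0.99, and their other probe sets with means above 5 lay between -1.34 and -0.93.

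Genes that serve the cathepsins were read with the same fit. Of 21 genes for sorting and activation, none rose with rIFN-β in Ifnb+/+ CGNs, and the median was -0.22. In that comparison 4 fell (limma, adjusted p under 0.05), against 1.36% of all genes. These were Lgmn, the legumain protease that trims cathepsin precursors (-0.92, limma adjusted p = 0.00957), and Cln8, which exports lysosomal enzymes from the endoplasmic reticulum (-0.77, 0.00416 adjusted). The others were the lysosomal membrane protein gene Cln3 (-0.70, 0.0117 adjusted) and Grn, which encodes progranulin (-0.42, 0.0353 adjusted). Among 12 genes of transcriptional control, Flcn, which keeps TFEB and its relatives out of the nucleus, fell by 0.56 (limma adjusted p = 0.011), and among 13 partners and substrates, Neu1, the sialidase held by cathepsin A, fell by 0.82 (limma adjusted p = 0.0436). The lysosomal proton pump had 0 of 17 genes past the threshold, with a median of -0.33 and 8 of 17 lower at an unadjusted p under 0.05, against 11.1% of all genes lower and 8.81% higher at that level. Of 10 inhibitors, such as Cst3, which encodes cystatin C, 0 passed, while 1 was higher and 1 lower by the unadjusted p. Of 13 further cathepsin genes 0 passed, with 1 lower by the unadjusted p and a mean log2 value of 2.56 to 2.81 over the arrays. In the other comparisons 0 genes of these lists passed the limma test. By the unadjusted p, with the same limit of 0.05, 8 of 21 sorting genes were lower in untreated Ifnb-/- against Ifnb+/+ CGNs, against 12.8% of all genes, and 4 of 21 had a positive difference of rIFN-β effects, against 10.1%.

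Microglial markers moved with several members. Of 25 measured markers, 9 fell with rIFN-β in Ifnb+/+ CGNs (limma, adjusted p under 0.05), against 1.36% of all genes. Among them were Trem2 (-1.50), a receptor of microglia, Cd68 (-1.65), a lysosomal glycoprotein of macrophages, the complement gene C1qb (-1.12) and Laptm5 (-0.95). In Ifnb-/- CGNs given rIFN-β 2 fell, Laptm5 and Cd14, against 0.742% of all genes, and 1 rose, Fcgr1, against 0.929%. Untreated Ifnb-/- CGNs had 2 lower than Ifnb+/+ CGNs, Fcgr1 and Trem2, against 0.0824% of all genes. The mean over the 25 markers was 5.49, 5.55 and 5.62 on Ifnb-/- + rIFN-β arrays and 5.86, 5.75 and 5.80 on Ifnb-/- arrays. It was 5.83, 5.77 and 5.47 on Ifnb+/+ + rIFN-β arrays, against 6.17, 6.27 and 6.16 on Ifnb+/+ arrays. Untreated Ifnb+/+ arrays were thus highest, as they were for Ctsd, Ctsa and Ctsz, and in each genotype the treated arrays lay below the untreated ones. Csf1r and C1qa were at 7.24 or more on every array, whereas P2ry12 stayed at 3.49 or less and Gpr34 at 2.13 or less, near the low end of the scale.

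Over the 12 arrays the marker mean followed Ctsz (r = 0.91), Ctsa (r = 0.88), Ctsb (r = 0.82), Ctsd (r = 0.82) and Ctsl (r = 0.71), with values that share the group differences. After the group means were taken out, the same r was 0.37 for Ctsz, -0.04 for Ctsa, 0.37 for Ctsb, 0.37 for Ctsd and -0.08 for Ctsl. For the other members, r over 12 arrays was 0.67 for Ctsf, 0.38 for Ctsh, 0.33 for Ctsc, 0.3 for Ctss and -0.18 for Ctsk. With group means taken out it was 0.25, -0.7, -0.13, 0.04 and -0.62 in that order. Within groups the granule neuron marker mean had r = 0.02 with Ctsz, -0.08 with Ctsa, -0.39 with Ctsb, 0.17 with Ctsd and -0.73 with Ctsl. It had 0.7 with Ctsf, -0.47 with Ctsh, -0.9 with Ctsc, -0.79 with Ctss and -0.75 with Ctsk. Trem2 also passed the test of the difference of rIFN-β effects with Ctsd (1.73 on the log2 scale, limma adjusted p = 0.0119). Between the treated genotypes, where Ctsd was higher in Ifnb-/- CGNs, Trem2 was at 0.71 (limma adjusted p = 0.153) and Cd68 at 0.53 (limma adjusted p = 0.722). These were the 2 of 25 markers higher there by an unadjusted limma p under 0.05, against 1.88% of all genes. At that level 6 were lower, against 3.06% of all genes. The median over the 25 markers was -0.12, against 0.03 over all genes. The part of microglial RNA in the cathepsin differences was not tested.

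Some other marker lists, though not all, also fell with rIFN-β in Ifnb-/- CGNs. Markers of other macrophages averaged 4.92, 5.06 and 5.19 on Ifnb-/- + rIFN-β arrays, against 5.56, 5.49 and 5.50 on Ifnb-/- arrays. The same lower level without overlap was seen for GABAergic interneuron markers (6.70, 6.04 and 6.72, against 7.01, 7.01 and 7.10), for Purkinje cell markers (5.52, 5.08 and 5.75, against 5.99, 5.92 and 6.10) and for meningeal fibroblast markers (7.15, 6.98 and 7.19, against 7.55, 7.55 and 7.52). In Ifnb+/+ CGNs the treated and untreated arrays overlapped for each of these 4 lists. Endothelial markers were instead higher without overlap in treated Ifnb-/- CGNs (3.32, 3.23 and 3.39, against 3.15, 3.15 and 3.1). So were erythroid markers (2.75, 2.68 and 2.68, against 2.57, 2.41 and 2.55), and both lists lay near the low end of the scale. Oligodendrocyte markers overlapped there (5.63, 6.01 and 5.68, against 5.99, 5.89 and 5.93), as did astrocyte markers. Single genes that fell in Ifnb-/- CGNs were Pf4 of the 8 other macrophage markers (-1.76, limma adjusted p = 0.0184) and Mobp of the 12 oligodendrocyte markers (-1.16, limma adjusted p = 0.00227). Their part in the lower Ctsz of treated Ifnb-/- CGNs was not tested.

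**Figure D4:**
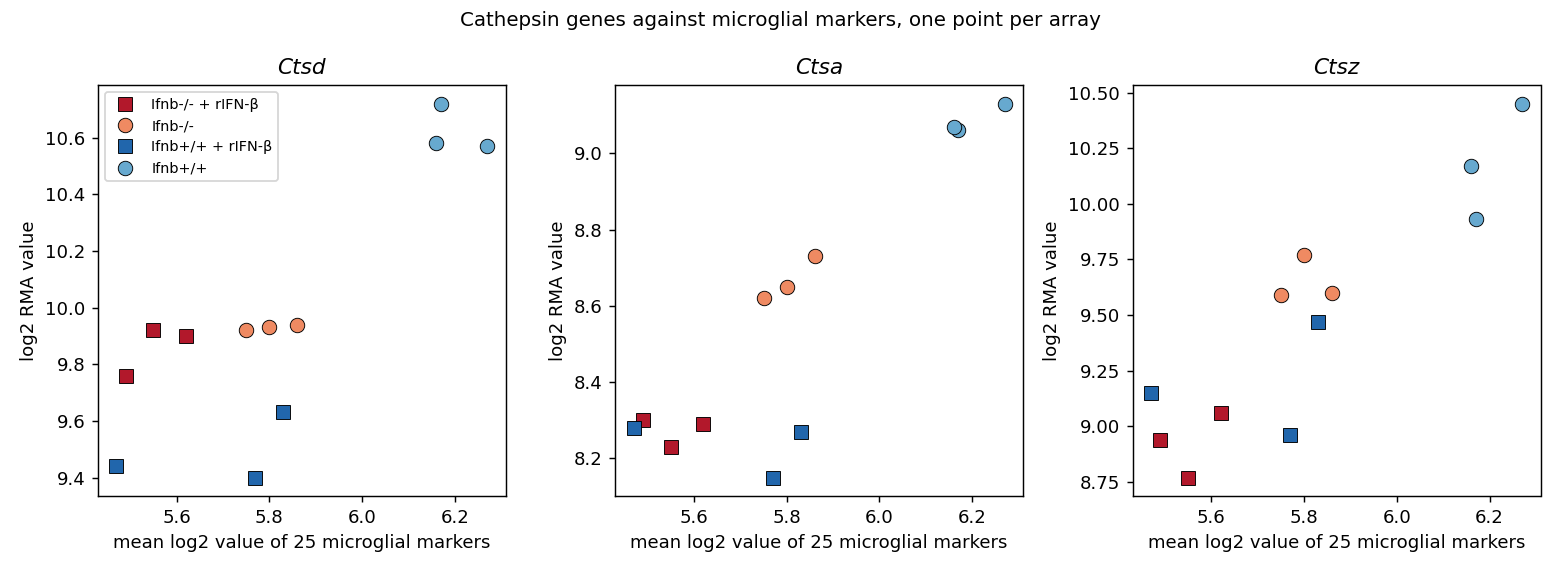
Log2 RMA values of Ctsd, Ctsa and Ctsz (y axes) against the mean log2 value of 25 microglial markers (x axis), 1 point for each of the 12 arrays, coloured by group. Untreated Ifnb+/+ arrays lie at the upper right, at marker means of 6.16 to 6.27, and Ctsd on Ifnb-/- + rIFN-β arrays lies above Ctsd on Ifnb+/+ + rIFN-β arrays, at marker means of 5.49 to 5.62 and 5.47 to 5.83.

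Likeness of pattern was measured by Pearson's r over the 12 arrays among 9731 genes with a mean log2 value of at least 5. The most like genes were Adam8, Trem2 and Camk1 for Ctsd (r = 0.97, 0.96 and 0.95), and Gusb, Nfs1 and Trmt1 for Ctsa (r = 0.97, 0.95 and 0.95). They were Rab7b, Ifi30 and Fcgr3 for Ctsb (r = 0.95, 0.95 and 0.94), and Gpr137b-ps, Dab2 and Syne2 for Ctsl (r = 0.97, 0.96 and 0.94). For Ctsz they were Frmd4b, Nfs1 and Ndrg1 (r = 0.97, 0.95 and 0.94). These r values share the group differences. After the group means were taken out, r in the same order was 0.31, 0.49 and 0.75 for Ctsd, and 0.22, 0.58 and -0.29 for Ctsa. It was 0.85, 0.75 and 0.90 for Ctsb, 0.96, 0.92 and 0.81 for Ctsl, and 0.92, 0.59 and 0.82 for Ctsz. Nfs1 was thus listed for both Ctsa and Ctsz, and Gusb, a lysosomal β-glucuronidase, and Ifi30, a lysosomal thiol reductase, are of the same organelle as the cathepsins.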

How the data were processed

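RNA from 12 CGN cultures was hybridised to Affymetrix mouse arrays, and the authors deposited 1 table of log2 values after RMA, with background correction and normalization already done. Of 45037 probe sets, 34945 named 1 gene in the platform annotation, and 932 that named several and 9160 that named none were left out, so 18193 genes were tested. A gene was read from its probe set with the highest mean over the 12 arrays. All 4 groups were fitted in limma 3.58.1 (R 4.3.3) with lmFit and eBayes, without further normalization, and p-values were adjusted by Benjamini-Hochberg over all genes. The test was tried on simulated data. Array scanner files, from which background and detection could be judged, were not used here, and the number of arrays limits the precision. The members and the gene lists were chosen with earlier results of these data known. Members were named throughout, with tests given where the unadjusted p was under 0.05 or the value was needed to describe the pattern. Genes of the other lists were named when they passed the threshold, at most 4 per list and comparison, or defined the list. The interferon-stimulated genes were described as a list and not named singly. The 3 genes most correlated with each member that passed were named too. Some genes and values were named after they were seen, as description. Alternatives were other probe set rules, a minimum mean of 5, further normalization, array weights, other variance settings, a replicate block, the methods' t-test and leaving out each array.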

Additional observations from a re-analysis of the deposited data

Results flagged for a closer look

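The effect of rIFN-β on Ctsd differed between the genotypes by 1.07 on the log2 scale, Ifnb-/- minus Ifnb+/+, in the test of the difference itself (limma adjusted p = 0.0414). The call was lost in 15 of 21 alternatives, with the value between 1.00 and 1.14 throughout. They were 10 of the 12 refits without 1 array, and 5 other settings: probe sets tested singly, a mean of at least 5, renewed quantile normalization, centring and the replicate block (adjusted p 0.0528 to 0.126). Groups of 3 arrays are too small for the test of single far-off arrays, so no array was examined in that way.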

How the results depend on the processing

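The 19 fold changes followed were those of members with an unadjusted limma p under 0.05 in the main fit, a choice that makes a reversal unlikely. No direction reversed among them over 447 refits. The call was the same in 368, was lost in 60 and was gained in 19. Array weights were estimated gene by gene, chosen after seeing the data, because limma's default weights did not converge (highest weight 5740).

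The number of cathepsin genes past the threshold depended on these settings. For untreated Ifnb-/- against Ifnb+/+ CGNs it was 1, and 0 after centring each array on its median, with only the groups compared, with the replicate block or with the methods' t-test after adjustment, 6 with array weights, and 0 to 2 without single arrays. For rIFN-β in Ifnb-/- CGNs it was 1, and 0 when a gene's probe sets were averaged, when each was tested singly or with the replicate block, 2 with centring or only the groups compared, 5 with array weights, and 0 to 2 without single arrays. For rIFN-β in Ifnb+/+ CGNs it was 5, and 2 with only the groups compared, 0 with the methods' t-test after adjustment, 6 with array weights or at an unadjusted p under 0.05 and 1.5-fold by either test (the sixth being Ctsf), and 3 to 5 without single arrays. Between treated genotypes it was 0, and 1 with array weights or with limma at an unadjusted p under 0.05 and 1.5-fold, and 0 to 1 without single arrays. For the difference of effects it was 1, and 0 when probe sets were tested singly, with a mean of at least 5, with renewed quantile normalization, with centring or with the replicate block, 4 with array weights, and 0 to 1 without single arrays.

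Counts over all genes moved more. In the order above they were 21, 304, 571, 11 and 4, and ranged over single arrays left out from 0 to 3846, 83 to 705, 241 to 2905, 0 to 203 and 0 to 1237. Over the other settings they ranged from 6 to 7946, 249 to 3962, 0 to 3292, 0 to 358 and 0 to 4103. Leaving out Ifnb+/+ replicate 2 gave the 3846. Nothing in the sources used here says whether same-numbered cultures were prepared together, and groups of 3 arrays cannot decide it. With group means taken out, 5 of 18 same-numbered pairs correlated above 0.1 (-0.50 to 0.43). Of the 12 arrays, 5 correlated best with their own number. Centring moved the median of all genes by at most 0.1, and it left 9 of 10 members below 0 for untreated Ifnb-/- against Ifnb+/+ CGNs, all 10 with rIFN-β in Ifnb-/- CGNs and 9 with rIFN-β in Ifnb+/+ CGNs.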
